A study of Sus scrofa with 12 samples.

Results

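The m6A peaks described here lay outside the exons of every RefSeq mRNA on their own strand. A peak was taken when it shared no base with an exon of an annotated mRNA of Sscrofa11.1 on the same strand, so that an overlap of 1 bp was enough to leave it out. Of the 61902 peaks in the 6 deposited lists, 8009 (12.94%) met this rule, and the other 53893 lay on such an exon and serve as the comparison. Boar sperm was examined by MeRIP-seq, in which fragmented RNA is pulled down with an antibody to m6A (IP) and sequenced next to an untreated input library. Semen of 3 Duroc boars was used as fresh sperm (Fs), frozen in liquid nitrogen for RNA extraction without further treatment, or as frozen-thawed sperm (Fts), cooled in lactose-egg yolk extender, mixed with glycerol, frozen in straws over liquid nitrogen vapour and thawed. Each group had 3 IP and 3 input samples, and peaks were called by the authors in each IP sample against its input. The authors had kept only peaks on mRNAs by their own annotation, so peaks outside RefSeq mRNA exons may lie on exons of theirs, and the 12.94% and each share by position below hold for RefSeq alone. The ejaculates of each boar were split between the groups, so the 6 samples come from 3 animals. Peaks of 1 sample, and the same region in several samples, are not independent replicates. The read number behind a peak is unknown from the lists, and its only value is the score of the peak caller MACS, which is larger for a smaller p-value.

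The methyl group of m6A is placed on RNA while it is being transcribed, by a complex around METTL3 and METTL14, mostly at the sequence RRACH. It is not restricted to mRNA exons, since introns of precursor RNA, long non-coding RNA and primary microRNA transcripts can carry it as well. Mature sperm hardly transcribe and hold a store of RNA left from spermatogenesis, much of it fragmented, and a gene annotation of the pig lists fewer transcript ends and non-coding genes than those of human or mouse.

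The labelled cell type was set against marker genes by the peaks on their exons. Of 36 annotated sperm and spermatid genes, 22 had an exon peak in at least 1 sample, with 9, 10 and 7 genes in Fs and 7, 13 and 11 in Fts. This share of 61.1% was near the 56.6% of all annotated coding genes (11705 of 20678), so the list does not set sperm apart by its peaks. SPACA1, an acrosomal membrane protein, and the flagellar genes DNAH1 and CFAP44 had one in all 6 samples, while PRM1, TNP1, AKAP4 and ODF1 had none. Of the other lists, 5 of 7 leukocyte genes, 4 of 6 epithelial genes and 7 of 10 genes of earlier germ cells and somatic testis cells had an exon peak in some sample (71.4%, 66.7% and 70%), none of them in all 6. Epithelial genes with an exon peak numbered 1, 1 and 2 in Fs and 3, 3 and 4 in Fts, and leukocyte genes 0, 1 and 2 in Fs and 1, 2 and 3 in Fts. Over all genes the exon peaks were also more in Fts, with means of 8120 per sample in Fs and 9844 in Fts. No share of all coding genes per sample is given, so these counts are not read as a change in cell types. The defining leukocyte gene PTPRC had an exon peak in 1 Fs and 1 Fts sample. Before RNA extraction, sperm pellets were treated with a detergent meant to remove somatic cells. A peak needs both transcript and methylation, so fewer cells of a type, less RNA and less methylation cannot be told apart, and the part of other cells in the results below was not tested.

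The number of peaks outside mRNA exons was 1197, 1559 and 1611 in Fs1 to Fs3 and 1200, 1141 and 1301 in Fts1 to Fts3. The groups overlapped in number, with 1456 ± 225.5 (SD, n = 3) in Fs and 1214 ± 80.9 in Fts, a mean difference of -241.7 over the pairs of equal number (exact p = 0.5 by two-sided sign flips, adjusted p = 0.5 over 7 comparisons of the groups). With peaks of a score from 50 upwards alone, the mean difference was 17.3 and thus turned round, and from 20 upwards it was -30.7. It was -364 without the samples numbered 1 and -153.5 without those numbered 2. As a share of all peaks of the sample they made up 14.9%, 15.0% and 15.6% in Fs and 12.4%, 9.91% and 10.9% in Fts. Every Fts sample was lower than every Fs sample. The means were 15.2% ± 0.355 in Fs and 11.06% ± 1.25 in Fts. This gap of -4.13 percentage points had the same direction in 3 of 3 pairs (exact p = 0.25, two-sided, adjusted p = 0.35). A p of 0.25 is the smallest that 3 pairs allow, so no comparison of the groups could pass a threshold of 0.05. The number of peaks on exons ran the other way, with 6818, 8819 and 8724 in Fs and 8482, 10369 and 10681 in Fts.

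Peaks outside exons were longer and lower in GC than the peaks on exons of the same sample. Their median length was 276.5 bp ± 7.92 (SD over 6 samples) against 165.5 bp ± 8.07, longer in 6 of 6 samples by a mean of 111 bp, or 225.8 bp with peaks placed by midpoint. Most exon peaks begin or end at an annotated exon edge, so the rule bears on this difference and no test is given for it. GC content was 48.6% ± 0.397 against 51.8% ± 0.725, lower in 6 of 6 samples (mean difference -3.23 percentage points, -1.79 by midpoint). The rule sorts exon sequence from other sequence, so it bears on this difference too and no test is given. Within samples, 8 comparisons were made by two-sided exact sign-flip tests with adjusted p. Length, GC, and the edges, strand and downstream comparisons below were counted among them although given without a test. Counting them makes the adjusted p of the other comparisons lower or leaves it as it is. The smallest p that 6 samples allow is 0.03125, and no adjusted p within samples was below 0.05. These tests take the 6 samples as independent although they come from 3 boars, and 3 units could not give a p under 0.25. Bases that the assembly marks as repeats made up 18.7% to 20.9% of the outside sequence of a sample and 10.2% to 11.3% of the sequence on exons.

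In 3 further measures the difference between outside and exon peaks did not have the same direction in all samples. A score of at least 50 was reached by 18.8% ± 3.10 of outside peaks and 20.0% ± 4.59 of exon peaks (mean difference -1.26 percentage points, lower outside in 4 of 6 samples, exact p = 0.125, adjusted p = 0.143), and by midpoint the difference turned to 0.177. A peak of another sample of the group overlapped 68.2% ± 4.43 of outside peaks and 68.8% ± 4.11 of exon peaks (difference -0.530, from -1.83 to 1.67 over the other settings, exact p = 0.875, adjusted p = 0.875). RRACH occurred 1.29 ± 0.018 times per 100 bases in outside peaks and 1.36 ± 0.067 times in exon peaks (difference -0.071, exact p = 0.125, adjusted p = 0.143). The last difference was -0.0048 ± 0.010 in the Fs samples and -0.137 ± 0.0087 in the Fts samples, where every sample was lower outside (1.26, 1.31 and 1.30 outside and 1.28, 1.31 and 1.30 on exons in Fs, 1.27, 1.29 and 1.28 outside and 1.42, 1.42 and 1.41 on exons in Fts). The outside values overlapped between the groups and the exon values did not, so the contrast lies in the exon peaks (two-sided exact permutation test of 3 against 3 samples, p = 0.1, the smallest p possible, reached in 4 of 8 such contrasts). With peaks placed by their midpoint the RRACH difference over the 6 samples was -0.117, and with GGACT in place of RRACH it was -0.0182 (exact p = 0.03125 for each, not adjusted). With DRACH it was -0.022 (exact p = 0.4375), and in 100 bp around the midpoint -0.062 (exact p = 0.1562). Overlap with a peak in each of the 5 other samples was found for 11.9% to 16.3% of outside peaks and 7.96% to 12.5% of exon peaks. An overlap of 1 bp was enough, and longer peaks have more room for it, so the shares of overlap are not corrected for length.

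The edges of the peaks on exons follow the annotation. Of these peaks, 83.3% began at the exact start or ended at the exact end of an annotated mRNA exon, and after a shift by 1 base at most 0.275% of starts or ends still met one. The dinucleotides AG just before and GT just after a stretch mark the end of the upstream and the start of the downstream intron, and 84.4% ± 3.16 of exon peaks had at least 1 of them in place. Among outside peaks, which touch no such exon, the share was 49.0% ± 2.13. The gap between these shares follows in large part from the rule, which sets apart the peaks on annotated exons, and no test is given for it, although it was counted among the 8 comparisons in the adjustment. At positions 10 bases further out, 9.33% to 11.5% of the outside peaks of a sample had AG or GT. The 46.6% to 51.3% of outside peaks with a splice dinucleotide at an edge thus stood above the share at the shifted positions in all 6 samples, without a test.

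Each outside peak was given 1 position. Exons of non-coding transcripts on the same strand came first, then introns of a coding gene on the same strand, then the opposite strand of a coding gene, then the space between genes, and sequences of the assembly with no annotated mRNA were kept apart. Between genes lay 3521 peaks (44.0%), in same-strand introns 1610 (20.1%), on non-coding exons 1536 (19.2%), on the opposite strand 1208 (15.1%) and on sequences without an mRNA 134 (1.67%). Non-coding exons held 18.8%, 18.2% and 17.9% of the outside peaks in Fs and 20.7%, 20.4% and 19.8% in Fts. All Fts samples were above all Fs samples (18.3% ± 0.438 in Fs, 20.3% ± 0.472 in Fts, difference 1.96 percentage points, higher in 3 of 3 pairs, exact p = 0.25, two-sided, adjusted p = 0.35), and the difference was 3.06 with scores from 20 upwards, 2.04 from 50 upwards (exact p = 0.5) and 1.36 by midpoint. The opposite strand held 14.5% ± 0.725 in Fs and 15.8% ± 0.669 in Fts (difference 1.38, higher in 3 of 3 pairs, exact p = 0.25, adjusted p = 0.35). That difference was 0.234 by midpoint (exact p = 0.75), 2.27 outside the exons of any transcript, and 2.89 and 5.07 with scores from 20 and from 50 upwards. The space between genes held 45.3% ± 1.05 in Fs and 42.4% ± 0.580 in Fts (difference -2.88, lower in 3 of 3 pairs, exact p = 0.25, adjusted p = 0.35), and the difference was -4.50 by midpoint and -6.10 and -6.84 at the same minimum scores. Outside the exons of any transcript, the difference between genes was -2.06 (exact sign-flip p = 0.5). Same-strand introns held 20.4% ± 0.914 in Fs and 19.6% ± 0.393 in Fts, with overlapping groups (difference -0.757, exact p = 0.5, adjusted p = 0.5), by midpoint the difference turned to 2.78, and otherwise it lay between -1.20 and -0.137.

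The 6 lists were merged by strand into 29713 regions, of which 3618 held outside peaks alone, 25937 held exon peaks alone and 158 held both. Of the outside regions, 1788 were found in a single sample and 177 (4.89%) in all 6. Over all regions, 3.5% were found in all 6 samples, and over the exon regions 3.23%, without correction for the greater length of outside peaks. In the 177 outside regions, every Fts score was above every Fs score in 20 (11.3%), against 12.7% of all regions found in 6 samples. The reverse held in 30 (16.9%), against 21.9% of all such regions, and both shares of the outside regions were thus below those over all regions. The 3 regions found in all 6 samples with the highest lowest score were taken from each of non-coding exons, same-strand introns, the opposite strand, the 5 kb downstream of genes and the remaining space between genes, 15 in all. All but 1, with overlapping groups, are named below. In 6 of the 15 the Fts scores were all higher, in 2 all lower and in 7 they overlapped with Fs.

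Among the regions on non-coding exons found in all 6 samples, those of 2 microRNA genes had the highest lowest scores. MIR21, a microRNA known from many tissues, lay in a region on the plus strand of chromosome 12 from 36064900 to 36065877, which had the score 3100 in each of the 6 samples. This score recurred in the lists, 37 outside peaks and 147 exon peaks having it or a higher one, so it gives no order among samples. The region is 978 bp long, holds the annotated hairpin from 36065267 to 36065358, and lies 45706 bp upstream of the next coding gene on its strand. MIR199A-1, which gives a pair of mature microRNAs and lies on the opposite strand of the dynamin gene DNM3, was covered by a region on the minus strand of chromosome 9 from 114533491 to 114533888. Its scores were 1266.5, 3100 and 1587 in Fs and 3100, 3100 and 924.3 in Fts. Both groups held a sample at 3100, and they overlapped. These were the only 2 outside regions on small RNA exons, and each sample had exactly 2 such peaks. Because the regions are far longer than the hairpins, the mature sequences are shown from RefSeq positions on Sscrofa11.1, written as DNA from 5′ to 3′ with the seed, bases 2 to 8, in capitals. They lie at chr12:36065284-36065305 on the plus strand and, on the minus strand, at chr9:114533828-114533850 and chr9:114533790-114533811. The 3 seeds differ from one another.
ssc-miR-21: tAGCTTATcagactgatgttga
ssc-miR-199a-5p: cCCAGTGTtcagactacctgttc
ssc-miR-199a-3p: aCAGTAGTctgcacattggtta

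Annotated pseudogenes, copies of genes without a usable reading frame, held 1106 of the 1536 peaks on non-coding exons. Their number was 174, 211 and 219 in Fs and 176, 150 and 176 in Fts, and they made up 13.9% ± 0.562 of outside peaks in Fs and 13.8% ± 0.791 in Fts. These shares overlapped between the groups. The 477 pseudogene regions were searched against the joined exon sequence of each coding gene. Of them, 328 (68.8%) matched that of a gene in the sense direction over at least 80% of the region, 176 with an identity of at least 95% and 68 of at least 99%. Over all 3618 outside regions 507 (14.0%) had such a match, so pseudogene regions made up most of them. A read from such a copy and from its coding relative cannot be told apart where they are identical, and which of them gave the reads was not tested.

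LOC100152315, a pseudogene on an unplaced sequence, had the highest lowest score of this kind, with 171.5, 154.3 and 273.0 in Fs and 438.3, 339.0 and 555.9 in Fts. All Fts scores were higher than all Fs scores, and the region of 531 bp matched the exon sequence of LOC110258558 with 99.8% identity. LOC110259436 on chromosome 2, from 113862754 to 113862773, had 87.6, 96.3 and 94.3 in Fs and 507.0, 229.3 and 230.1 in Fts, again higher in every Fts sample. LOC102160609 on chromosome 1, on the opposite strand of the sulfotransferase gene HS3ST5, ran the other way with 175.2, 282.6 and 94.8 in Fs and 63.8, 70.9 and 46.5 in Fts. Non-coding exons had 35 regions in all 6 samples, 29 of them on pseudogenes, and the 10 with the highest lowest score are named here. In the other 5 pseudogenes of these 10 the groups overlapped, namely LOC100515775, which matched GPS2 with 90.7% identity and had scores of 82.7 to 247.8, LOC110261714 (31.7 to 97.7), LOC100516486 (28.7 to 144.8, matching LOC110259270 with 99.3% identity), LOC110261748 (25.0 to 87.8, matching LOC100518976 with 99.7%) and LOC100522980 (25.0 to 170.8). LOC100522980 matched HNRNPA2B1, a reader of m6A, over 98.7% of its 1065 bp with 83.0% identity.

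Exons of long non-coding RNA genes held 34, 35 and 43 peaks in Fs and 51, 51 and 52 in Fts. Every Fts sample was above every Fs sample, with 2.59% ± 0.307 of the outside peaks in Fs and 4.24% ± 0.237 in Fts, a split looked at after the values were seen and not tested. The peaks formed 129 regions on 78 such genes. Of these genes, 32 with 73 regions bear a symbol and not only a locus number, and the annotation describes most of them by the name of a protein while giving them non-coding transcripts alone. On the other 46 genes lay 56 regions. Edges of lncRNA peaks were close to those of exon peaks, since 74.4% to 91.4% of them had AG or GT in place.

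Of the symbol-bearing genes, the 8 with 3 or more regions and 2 with 2 regions each are given here, the latter chosen after their values were seen. LRMDA, with 1 region, is added because that region was found in all 6 samples. EIF4B, named for a translation initiation factor, had 11 regions on chromosome 5, with peaks in 3, 0 and 2 of them in Fs and in 8, 7 and 5 in Fts. Its strongest region, from 18289013 to 18289186 on the plus strand, had a score of 66.9 in Fs1, no peak in Fs2 and Fs3, and scores of 798.6, 1390 and 1142 in Fts. HNRNPU, named for a nuclear RNA-binding protein, had 9 regions on chromosome 10, with peaks in 1, 1 and 3 of them in Fs and in 6, 3 and 4 in Fts. Its highest score in a sample was 23.8, 32.8 and 4.36 in Fs and 991.4, 446 and 3100 in Fts, without overlap. For EIF4B every Fts count was above every Fs count, while for HNRNPU the highest Fs count equalled the lowest Fts count. THOC5, a gene of the THO complex of mRNA export, had 5 regions, with scores of at most 39.05. With 3 regions each followed CDK6, a cell cycle kinase gene with peaks in Fs1 and Fs3 alone, GSN, an actin-severing gene with peaks in 2, 3 and 3 regions in Fs and 2, 2 and 0 in Fts, EPB41L4A (2, 2 and 2, then 1, 1 and 2), ITCH (1, 0 and 1, then 2, 2 and 2) and PRPF38A (1, 1 and 2, then 0, 0 and 1). NPHP4, a ciliary gene, had 2 regions, with a peak in all 3 Fs samples and no Fts sample in each, and a highest score of 250.3. SNRPB, a spliceosome gene, had a region on chromosome 17 from 33093036 to 33093174 in all 6 samples, with scores of 6.44, 8.01 and 9.02 in Fs and 35.5, 41.7 and 38.9 in Fts. The SNRPB scores did not overlap between the groups. The other lncRNA region found in all 6 samples, that of LRMDA, did overlap. Its scores were 9.73, 32.2 and 10.9 in Fs and 15.8, 41.7 and 31.8 in Fts. Without the peaks of EIF4B and HNRNPU, lncRNA exons held 30, 34 and 38 peaks in Fs and 37, 40 and 43 in Fts. These numbers overlapped, while the shares of 2.35% ± 0.163 in Fs and 3.30% ± 0.211 in Fts did not, so these genes made up part of the gap between the groups.

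The remaining non-coding exons belonged to other transcript kinds. Non-coding transcripts of coding genes held 103 peaks in 49 regions, immunoglobulin or T cell receptor segments 35 peaks in 16 regions, and RNAs of the class misc RNA 14 peaks in 8 regions. Their numbers per sample were 10 to 23, 1 to 9 and 0 to 5, and 2 regions of the first kind and none of the others were found in all 6 samples.

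Peaks in introns of the same strand were the shortest of the 4 main positions, with a median length of 133 to 160 bp per sample, close to that of exon peaks. AG or GT stood at an edge of 56.3% to 63.8% of them, and both in 13.4% to 18.9%. They formed 718 regions, 38 of them in all 6 samples. PLD3, a gene of the phospholipase D family with a lysosomal product, held the region with the highest lowest score on chromosome 6 from 48648754 to 48650018. It had scores of 207.4, 368.7 and 416.4 in Fs and 654.5, 582.7 and 505.7 in Fts, higher in every Fts sample (means 330.8 and 580.9). FKBP6, which is required for meiosis in the male germ line, had an intronic region of 15 bp on chromosome 3 from 10667774 to 10667788. Its scores were 312.1, 370.6 and 272.7 in Fs and 3171, 142.2 and 1706 in Fts, the widest spread within a group among the named introns, and the groups overlapped. WRN, a RecQ helicase, had one of 57 bp on the minus strand of chromosome 15 from 54050911 to 54050967. It had 131.0, 97.8 and 61.4 in Fs and 159.0, 146.6 and 69.1 in Fts, also overlapping.

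Very short peaks were part of the set, and 935 of the 8009 (11.7%) were under 30 bp. AG or GT stood at an edge of 67.4% of these and of 46.4% of the longer ones, and their median score was 12.03 against 12.3. To show such edges, 3 regions are printed on Sscrofa11.1 with 10 bases added on each side, 5′ to 3′ on the strand of the peak, with an AG just before and a GT just after the region in capitals. FKBP6 is at chr3:10667764-10667798 (plus strand), WRN at chr15:54050901-54050977 (minus strand) and LOC110259436 at chr2:113862744-113862783 (plus strand). WRN and LOC110259436 had both dinucleotides in place, and FKBP6 had GT alone.
FKBP6: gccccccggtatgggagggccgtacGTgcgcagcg
WRN: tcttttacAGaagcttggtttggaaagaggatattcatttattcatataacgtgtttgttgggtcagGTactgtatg
LOC110259436: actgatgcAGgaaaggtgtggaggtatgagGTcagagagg

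Within the span of coding genes, outside peaks lay more often on the strand of the gene than on the opposite strand. The shares of outside peaks were 22.3% ± 0.808 and 16.9% ± 1.07 (SD over 6 samples), so that the strand of the gene led by 5.41 percentage points and in each of the 6 samples. The lead was 3.17 with only scores from 20 upwards, 2.92 from 50 upwards and 29.1 by midpoint, so its size depends on the rule. The rule takes away peaks on exons of the same strand and keeps those on exons of the opposite strand, so no test is given for the lead, although it too was counted among the 8 comparisons. Of the 1208 peaks placed on the opposite strand, 586 overlapped an exon of the opposite gene and 622 lay within its introns. They were 351 to 556 bp long in the median of a sample, and had the highest GC content of the 4 main positions, 50.1% to 51.6%. AG or GT stood at an edge of 30.6% to 39.1% of them.

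On the opposite strand, HHATL, a gene related to hedgehog acyltransferase, ended 1629 bp before a region on chromosome 13 from 26205734 to 26207767, opposite KLHL40, a muscle kelch gene. It had 72.5, 145.3 and 113.5 in Fs and 307.2, 224.3 and 316.1 in Fts, all higher in Fts. CTDSPL, a small phosphatase gene, began 69 bp after a region on chromosome 13 from 22707386 to 22707666, opposite LOC110256264. It had 901.3, 680.8 and 675.9 in Fs and 118.6, 57.0 and 114.8 in Fts, so that all Fs scores were higher (means 752.6 and 96.8).

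Near genes, outside peaks gathered behind the 3′ end. Within 5 kb of the nearest same-strand gene, 335, 452 and 453 peaks lay downstream in Fs and 321, 296 and 349 in Fts, against 148, 190 and 187 upstream in Fs and 148, 133 and 148 in Fts. Downstream was higher in 6 of 6 samples, with 27.4% ± 1.12 of outside peaks against 11.9% ± 0.425 (difference 15.5 percentage points, two-sided exact sign-flip test, p = 0.03125, adjusted p = 0.05), and within 1 kb the difference was 3.43. The downstream share was 28.4% ± 0.547 in Fs and 26.5% ± 0.490 in Fts, lower in 3 of 3 pairs (difference -1.86, exact sign-flip p = 0.25, adjusted p = 0.35), and the difference was -2.86 by midpoint, -3.31 with scores from 20 upwards and -1.03 within 1 kb. Of the peaks between genes, 783 lay within 1 kb downstream, 824 from 1 to 5 kb, 72 from 5 to 10 kb, 214 from 10 to 50 kb and 215 farther. Upstream the same steps held 600, 177, 141, 271 and 216 peaks. The steps differ in width, and within 5 kb most upstream peaks lay in the first 1 kb.

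Peaks within 5 kb downstream differed from the other outside peaks in length, edges and sequence. Their median length was 590 to 697.5 bp per sample, the longest of the positions with over 20 peaks in every sample. Only 12.6% to 20.5% had AG or GT at an edge, near the 9.21% to 16.8% at positions 10 bases farther out. AATAAA, the usual polyadenylation signal, occurred on the peak strand in 29.7% to 34.2% of them, against 16.1% to 19.3% of all outside peaks and 9.17% to 11.11% of exon peaks. These shares are not corrected for length, and longer peaks have more room for the motif.

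ZSWIM4, a zinc finger gene, had the downstream region with the highest lowest score, 1670 bp behind its end on chromosome 2 from 65307853 to 65309527. Its scores were 1152, 2848 and 1791 in Fs and 3100 in each Fts sample, higher in every Fts sample. RASSF7, a gene with a Ras association domain, had a region 2536 bp behind its end on chromosome 2 from 335042 to 335405, with 688.8, 511.6 and 445.6 in Fs and 1424, 2450 and 1922 in Fts. The Fts scores were again all higher (means 548.6 and 1932). OTUD6A, a deubiquitinase gene, had one 394 bp behind its end on chromosome X from 56137491 to 56137670. It had 287.0, 412.3 and 279.2 in Fs and 150.7, 147.9 and 111.4 in Fts, all lower in Fts.

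Upstream of genes, the peaks were shorter and higher in GC than within 5 kb downstream. Those within 5 kb upstream had a median length of 151 to 190.5 bp and a GC content of 51.0% to 53.8%, with GT just after the peak in 26.1% to 33.3% and AG just before it in 13.2% to 19.3%. Those farther upstream had AG or GT in place in 61.8% to 77.7%, and those farther downstream in 56.9% to 68.5%. Repeat-marked bases made up 27.6% to 34.6% of the farther downstream and 19.8% to 37.7% of the farther upstream peaks. A further 8 peaks in 5 regions had no coding gene on their strand of the sequence.

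GDF11, a growth factor of the TGF-β family, began 68 bp after a region of 64 bp on chromosome 5 from 21191190 to 21191253. It had scores of 1133, 2105 and 1341 in Fs and 1879, 1651 and 1591 in Fts, with overlapping groups and a repeat-marked share of 76.6%. FAM19A5 was the nearest gene of a region on chromosome 5 from 1878283 to 1879601, although 308331 bp away. It had 479.7, 437.1 and 1245 in Fs and 1145, 1120 and 631.3 in Fts, also overlapping, and 90.4% of its bases are marked as repeats. LOC102157603 lay 18335 bp beyond a region on chromosome 3 from 31653420 to 31653544. This region had 523.3, 232.2 and 524.8 in Fs and 599.8, 870.8 and 662.1 in Fts, all higher in Fts.

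Unplaced sequences and the Y chromosome had the largest share of peaks outside exons. On unplaced sequences 747 of 2163 peaks (34.5%) were outside, with 31.3% to 38.9% per sample, and on chromosome Y 37 of 95 (38.9%), with 28.6% to 46.2%. Chromosome X had 17.4%, and the autosomes had between 10.1% (chromosome 15) and 14.1% (chromosome 17). The 134 peaks on sequences without an annotated mRNA can only be outside by the rule, and they add to the share on unplaced sequences. They formed 60 regions, of which 32 matched the exon sequence of a coding gene elsewhere and 2 were found in all 6 samples.

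Some outside regions had a peak in all 3 samples of one group and in no sample of the other. In Fs alone there were 155 (4.28% of outside regions), against 3.71% of all regions, and in Fts alone 104 (2.87%), against 6.34% of all regions. Regions on exons had 3.63% and 6.82%. With scores from 20 upwards the order turned, with 55 in Fs alone and 60 in Fts alone, and from 50 upwards there were 21 and 38. With 2 of 3 samples enough, there were 481 and 339. Leaving out the samples numbered 1, 2 or 3 gave 379, 276 and 282 in Fs alone and 212, 229 and 208 in Fts alone. No share over all regions is given for these minimum scores and other settings. The turned order is thus not read as a property of outside regions. With all peaks, Fs-only regions were thus near their share over all regions, and Fts-only regions lay below it, which is not tested since a missing peak has no count behind it. By position, Fs-only and Fts-only regions were 75 and 39 of the 1616 between genes (4.64% and 2.41%), 33 and 25 of the 681 on non-coding exons (4.85% and 3.67%), 31 and 16 of the 718 in same-strand introns (4.32% and 2.23%) and 14 and 23 of the 543 on the opposite strand (2.58% and 4.24%). Of the 739 regions within 5 kb downstream, 36 were Fs-only and 14 Fts-only (4.87% and 1.89%), and of the 129 lncRNA regions 5 and 12 (3.88% and 9.30%). Pseudogene regions ran the other way from lncRNA regions, with 28 and 9 of 477 (5.87% and 1.89%).

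The Fts-only region with the highest lowest score lay on the plus strand of chromosome Y from 43255826 to 43256011, 2502811 bp from the nearest gene LOC102159347, with the score 3100 in all 3 Fts samples. PTBP1, a splicing regulator, ended 3095 bp before one on chromosome 2 from 77548191 to 77548466, opposite the gene PLPPR3, with scores of 3100, 3100 and 2131. PPIE, a cyclophilin gene, ended 13792 bp before one on chromosome 6 from 95580263 to 95581102, opposite the bone morphogenetic protein gene BMP8B, with 1504, 3100 and 3100. The 3 regions had no peak in any Fs sample. LOC100155289 had one in an intron on chromosome 17 from 13587110 to 13587208, with 1459, 1134 and 962.0, and it matched the exon sequence of the same gene with 97.0% identity. PLIN2, which coats lipid droplets, had one 3676 bp behind its end on chromosome 1 from 203712954 to 203713121, with 1183, 808.0 and 809.8.

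The 5 Fs-only regions with the highest lowest scores were below these. Over all peaks high scores were more frequent in Fts too, with 9 to 11 exon peaks of a sample at 3100 or above in Fs and 27 to 57 in Fts, and 3 to 4 against 6 to 13 outside peaks. SLC17A7, a vesicular glutamate transporter gene, began 947 bp after a region on chromosome 6 from 54522564 to 54522907, with scores of 165.6, 164.6 and 245.8. LOC110255356, a pseudogene on chromosome 9, had 83.8, 94.5 and 225.7 and matched LOC100620542 with 94.7% identity. TAOK3, a kinase gene 212748 bp away, was the nearest to a region on chromosome 14 from 34109068 to 34109267, with 71.5, 82.7 and 71.7, and this region matched LOC110262090 over its whole length with 94% identity. The highest lowest score in Fs alone, 164.6, was thus below every score of the 5 named Fts-only regions. ZNF389 lay 17944 bp from a region on chromosome 7 from 21988503 to 21989439, with 59.7, 94.0 and 162.6. LOC110256275, a pseudogene on chromosome 13, had 56.7, 98.4 and 64.04.

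To show the m6A motif in strong regions, sequences of 3 of the Fts-only regions and of the LOC102157603 region, found in all 6 samples, are given on Sscrofa11.1, 5′ to 3′ on the strand of the peak, with each RRACH in capitals. They are chrY:43255826-43256011 (plus strand), the PTBP1 region at chr2:77548191-77548466 (minus strand), the LOC100155289 region at chr17:13587110-13587208 (minus strand) and the LOC102157603 region at chr3:31653420-31653544 (plus strand). RRACH was found 1, 2, 2 and 0 times in them, that is 0.538, 0.725, 2.02 and 0 times per 100 bases, where all outside peaks had 1.29. Only the LOC100155289 region was above that value. Repeat-marked bases made up 67.8% of the PTBP1 region, 28.8% of the LOC102157603 region and none of the other 2.
chromosome Y region: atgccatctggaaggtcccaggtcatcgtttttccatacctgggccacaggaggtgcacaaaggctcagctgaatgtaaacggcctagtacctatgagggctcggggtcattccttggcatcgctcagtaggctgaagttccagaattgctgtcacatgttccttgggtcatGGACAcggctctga
PTBP1 region: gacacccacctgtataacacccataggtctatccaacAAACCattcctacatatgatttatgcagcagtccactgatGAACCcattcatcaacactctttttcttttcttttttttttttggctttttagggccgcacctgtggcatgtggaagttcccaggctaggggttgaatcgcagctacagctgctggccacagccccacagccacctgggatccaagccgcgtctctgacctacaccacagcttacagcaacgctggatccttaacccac
LOC100155289 region: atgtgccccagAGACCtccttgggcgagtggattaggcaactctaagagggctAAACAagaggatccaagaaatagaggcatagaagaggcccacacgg
LOC102157603 region: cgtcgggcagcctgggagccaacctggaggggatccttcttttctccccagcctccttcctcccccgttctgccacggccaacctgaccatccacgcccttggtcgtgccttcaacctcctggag

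Whatever their position by the order above, outside regions that lay in the span of a coding gene on its strand or, failing that, within 5 kb downstream of one belonged to 1587 of the 20678 annotated coding genes (7.68%). Of these genes 1395 had 1 such region, 173 had 2 and 19 had 3 or more. LOC102158035 on chromosome 7, a gene model of 584796 bp, had 8 regions with a highest score of 70.3. LOC100152327 on chromosome 14, described as an immunoglobulin lambda-like polypeptide, had 7 regions, with peaks in 1, 0 and 4 of them in Fs and 2, 1 and 2 in Fts. LOC100515741 on chromosome 8 had 6 regions, with peaks in 2, 2 and 5 of them in Fs and in 1, 0 and 0 in Fts, fewer in every Fts sample. TMCC1, a gene of an endoplasmic reticulum protein, and C8H4orf17 had 4 regions each, and their highest scores were 34.7 and 54.2.

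Over all coding genes 7.68% had such a region, against 0 of the sperm list, 14.3% of the leukocyte, 33.3% of the epithelial, 20% of the earlier germ cell and somatic testis and 11.8% of the m6A list, which rest on 1 or 2 genes each where above 0. None of the 36 sperm and spermatid genes had an outside region in an intron or within 5 kb downstream. Of the leukocyte genes, PTPRC had an intronic region in the 3 Fs samples, with scores of 8.97, 16.6 and 29.4. Of the epithelial genes, EPCAM had a region 2108 bp behind its end in the 3 Fs samples, with 7.14, 10.6 and 4.36, and CDH1 an intronic one in 1 Fs sample. PTPRC and EPCAM had no outside peak in Fts. INHBA, the inhibin beta A gene, had an intronic region in 2 Fs and 2 Fts samples, and CYP17A1, a steroid enzyme gene, in 1 Fs sample. Of 17 annotated m6A enzymes and readers, CBLL1, a subunit of the methyltransferase complex, had a region 326 bp behind its end in 1 Fs sample (score 18.1) and the reader IGF2BP3 an intronic one in 1 Fts sample (22.9). Of 12 known long non-coding RNAs, MEG3 alone is in the annotation by its symbol, and it had no peak.

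Near the limit of the rule, 78 outside peaks ended or began within 10 bp of a same-strand mRNA exon, and 645 peaks counted as on an exon shared only 1 to 10 bp with one. Their median scores were 10.3 and 10.7 and their median lengths 117 and 5 bp. AG or GT stood at an edge of 33.3% of the former and 84.3% of the latter.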

How the data were processed

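The authors trimmed reads with cutadapt 1.9.3 (per the submitters' processing notes), aligned them with HISAT2 to the pig genome, called peaks with MACS for every IP library, using the matching input, and kept peaks on mRNAs by an annotation whose release is not given in the sources used here. The deposited value of a peak is the authors' MACS score. Their deposited list of differential sites, which holds their own comparison, was not used here. Peaks were placed on RefSeq annotation release 106 of Sscrofa11.1 with Python 3.11.15, pysam 0.24.0 and samtools 1.23.1. All 233 sequence names with a peak were in the assembly and no peak passed the end of one. Regions are unions of same-strand peaks sharing at least 1 bp. Matches are from megablast of BLAST 2.17.0, plus strand, over at least 80% of a region. Groups were compared with two-sided exact sign-flip tests over pairs of equal number, and outside with exon peaks over the 6 samples, with Benjamini-Hochberg adjustment over 7 and 8 comparisons. Comparisons within samples on which the rule or the authors' filter bears were counted in the adjustment but are given without a test. Members and lists were chosen with earlier results of these data known. Named regions are from the 3 per position, 5 per group-only set and up to 10 non-coding regions with the highest lowest score, and the 5 genes with most regions. Regions of symbol-bearing lncRNA genes, some chosen after their values were seen, and of members of the gene lists are named as well. The 133 alternatives covered a minimum score of 20 or 50, placement by midpoint or by any transcript, distances of 1 and 10 kb, other motifs, overlap, gap and edge rules, unpaired tests and leaving out each replicate. The code passed 67 of 67 checks on planted cases and against the software scipy.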

Additional observations from a re-analysis of the deposited data

How the results depend on the processing

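Of 133 alternatives to 17 results, 96 kept the direction and the side of an unadjusted p of 0.05. For counts, staying within 1.5 times was enough. For the Fts minus Fs results, p cannot be under 0.25 with 3 pairs, or under 0.1 without the pairing. Those results could change at most in direction, so the 96 does not measure how robust they are. The remaining alternatives follow. With a score of at least 50 the number of outside peaks was higher in Fts by 17.3, and by midpoint the intron share was higher by 2.78. The excess of outside peaks shared within a group was 0.0487 with a score of at least 20, 1.67 by midpoint and -0.530 in the main setting. The excess of peaks with a score of at least 50 was 0.177 by midpoint. Before adjustment, p was under 0.05 for RRACH by midpoint (-0.117) and for GGACT (-0.0182). The excess on the same strand of a gene, given without a test, was 3.17 and 2.92 with a score of at least 20 and 50. With 1 replicate number left out, 4 samples cannot give an exact sign-flip p under 0.125, so none could be under 0.05. Length differences were then 107.0 to 114.2 bp and GC differences -3.26 to -3.19, both given without a test. Edges differed by -35.6 to -35.1 (a gap that the rule largely sets). Downstream minus upstream was 15.3 to 15.8, also without a test. Same minus opposite strand was 4.71 to 6.17 (its size set in part by the rule), and sharing within a group -1.46 to 0.303. Regions in Fs alone numbered 55 and 21 with scores of at least 20 and 50, 481 with 2 of 3 samples enough, and 276 to 379 with 1 number left out. Regions in Fts alone numbered 60, 38, 339 and 208 to 229, so that the order of the groups turned with a minimum score. No share over all regions is given for these settings.

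The labels do not say that equal numbers mark the same boar, and deviations of region presence correlated by only -0.0192, -0.0077 and -0.0039 in the 3 pairs over all regions and by 0.0115, 0.0138 and -0.0043 over the outside regions. Without the pairing (no replicate block), differences stayed as they were (-241.7 peaks, -4.13, 1.96, -0.757, 1.38, -2.88 and -1.86 percentage points). The exact permutation p was 0.1 to 0.3, the smallest possible being 0.1, so none could be under 0.05. Depth limits which peaks were called and could not be assessed from the lists.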
